A study of Homo sapiens with 6 samples.

Results

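CC chemokine receptors are membrane receptors on leukocytes that sense chemokines of the CC class, small secreted proteins named for a pair of adjacent cysteines. They signal through inhibitory G proteins and steer cell migration, and the set of receptors on a lymphocyte is widely used to tell apart cells that enter lymph nodes, skin, gut or inflamed tissue. The genes described here were the 9 CCR1, CCR2, CCR3, CCR4, CCR6, CCR7, CCR8, CCR9 and CCR10, taken by symbol from a table of 33644 genes with versioned Ensembl IDs. The IDs were ENSG00000121807.5 for CCR2, ENSG00000183625.14 for CCR3, ENSG00000183813.6 for CCR4, ENSG00000112486.15 for CCR6, ENSG00000126353.3 for CCR7, ENSG00000179934.6 for CCR8, ENSG00000173585.15 for CCR9 and ENSG00000184451.5 for CCR10. Of the 9 genes, 8 had a row in the table and CCR1 was not analysed here, and 6 of the 8 passed the table's filter on low means. The family was chosen by its levels and fold changes in this same table, among them those of CCR4, CCR7 and CCR2, so the fold changes below are a description, and no test of the family was made.

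The labels describe 6 samples at day 0, 3 of an alt-LAMA3 KO derivative of HEK293T and 3 of HEK293T with the genotype WT, with no treatment in either group. HEK293T is an established line from human embryonic kidney. The labels do not say how many clones the KO derivative came from, nor whether samples of a group were separate cultures, so that errors and p-values may cover technical spread only. The processed data are 1 comparison without values per sample, in which neither group is named. A positive log2 fold change means higher in what is called here the numerator group, the other being the denominator group, and neither could be matched to the KO or the WT samples. LAMA3, the gene that gives the knockout its name, did not settle which group is which. In the authors' deposited table it stood at a mean normalized count of 19.0, its log2 fold change was -0.62 (SE 0.69) and its adjusted p was 0.578.

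Levels of marker genes went against the labelled cell line. A mean normalized count of 72.0 (0.0005% of the summed means) is used throughout as a minimum level, and 8 of 10 T cell markers reached it, up to CD8A at 27074 in the authors' deposited table. The same minimum was reached by 2 of 10 markers of HEK293-derived lines, by 1 of 8 monocyte and dendritic cell markers (CD68), 1 of 5 NK cell markers (NCAM1), 0 of 6 B cell markers and 0 of 5 measured eosinophil and basophil markers. CD4, the co-receptor of helper T cells, stood at 1.83 and CD14, a defining monocyte marker, at 2.38 in the authors' deposited table. Means shared exactly by at least 50 genes were collected, and values that are sums or multiples of lower ones were left out as more than 1 read. The values that remained numbered 9, each shared by 149 to 390 genes, as single reads in 9 libraries would give, against 6 labelled samples. Genes at the shared means of 0.117, 0.122 and 0.147 had a median log2 fold change of 0, and those at the rest of the 9 a positive or negative one. Reads from libraries in neither group would give a change of 0, which was not tested. The receptor levels below average over all libraries of the table and so may include libraries outside the 2 groups. The fold changes are those of the 2 groups. Neither levels nor fold changes are assigned to HEK293T cells. In bulk RNA, more cells that carry a receptor and more mRNA per cell cannot be told apart.

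By mean normalized count, which is not divided by gene length, CCR4, CCR7, CCR2 and CCR8 were abundant, CCR6 and CCR3 were low to moderate, and CCR10 and CCR9 were near the limit of detection. The mean normalized count, an average over all libraries of the table, was 7088 for CCR4 in the authors' deposited table, above 98.6% of the genes with a mean over 0. CCR4 binds CCL17 and CCL22 and is known from type 2 helper, regulatory and skin-homing T cells. The authors' deposited table gave 4525 for CCR7, the receptor for CCL19 and CCL21 that guides naive and central memory T cells into lymph nodes. CCR2, which binds CCL2 and is known from monocytes and memory T cells, had a mean normalized count of 3315 in the authors' deposited table. For CCR8, the CCL1 receptor known from regulatory and type 2 helper T cells, the authors' deposited table gave 2049. These 4 receptors lay above at least 92.9% of the genes with a mean over 0.

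CCR6, the CCL20 receptor of type 17 helper T cells and B cells, had a mean normalized count of 305 in the authors' deposited table. CCR3, the eotaxin receptor of eosinophils and some type 2 helper T cells, stood at 83.2 in the authors' deposited table, just above the minimum of 72.0. CCR10, which binds CCL27 and CCL28 and is known from skin-homing T cells and plasma cells, had 1.53, and CCR9, the CCL25 receptor of gut-homing T cells and thymocytes, had 0.611 in the authors' deposited table. If a single read adds between 0.0586 and 0.147 to a mean, the values shared by many genes, CCR9 rested on 5 to 10 reads and CCR10 on 11 to 26 reads over all libraries. Neither has an adjusted p in the table.

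Divided by merged exon length in kilobases (GENCODE 29), the order of levels was CCR4 at 2290, CCR7 at 1804, CCR8 at 1554 and CCR2 at 888 mean normalized counts per kilobase. CCR6 followed at 70.1, CCR3 at 23.3, CCR10 at 0.584 and CCR9 at 0.217 mean normalized counts per kilobase. CCR8 has the shortest exons (1.32 kb) and so moved above CCR2 (3.73 kb) on this scale. Per kilobase of coding sequence CCR2 was the third at 2955 and CCR8 the fourth at 1924 mean normalized counts, and the other 6 kept their places. The spread of these levels over libraries is not known, so which neighbours in the order differ beyond it was not tested. CCR4 alone made up 40.8% of the summed mean normalized counts of the 8 receptors, and CCR4, CCR7 and CCR2 together 86.0%.

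**Figure D1:**
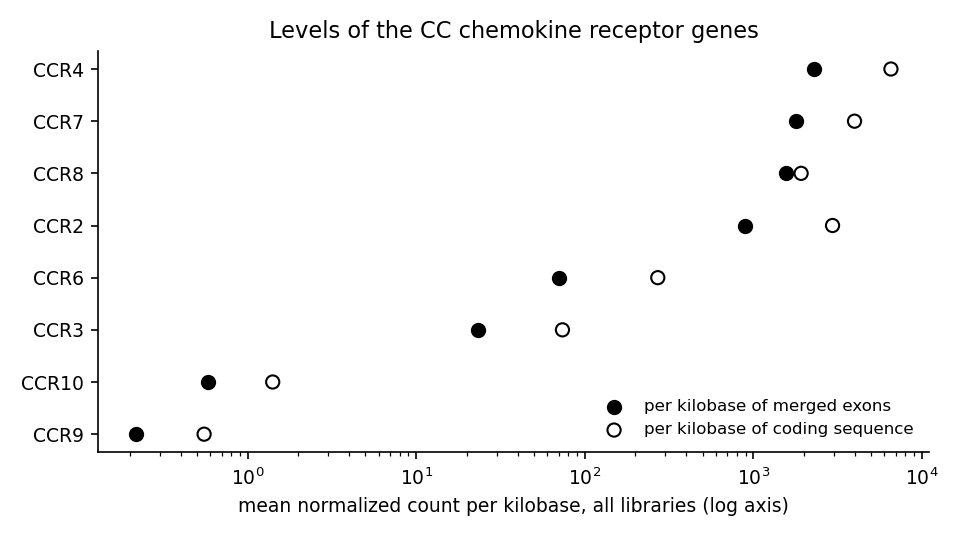
Levels of the 8 receptor genes on a log axis, as mean normalized count over all libraries per kilobase of merged exons (filled) or of coding sequence (open). CCR4, CCR7, CCR8 and CCR2 stand between 888 and 2290 per kilobase of exons, and CCR9 and CCR10 below 1.

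Promoter windows of CCR4, CCR3 and CCR6 are shown because CCR4 was higher and the others lower in the numerator group, as given below. RefSeq promoter entries (GRCh38.p14) matched 6 of the 9 genes, and CCR7, CCR8 and CCR10 had none. Each line starts 250 bases before the annotated start, runs 5′ to 3′ on the plus strand and ends at that start or where a GENCODE 29 exon of the gene begins, if earlier, with capitals where a motif was found. The windows are chr3:32951394-32951573 for CCR4, chr3:46242131-46242380 for CCR3 and chr6:167111545-167111794 for CCR6, and that of CCR3 lies in an intron of its longest annotated transcript. The RefSeq window of CCR2 begins within a GENCODE exon of the gene and is not printed.
CCR4: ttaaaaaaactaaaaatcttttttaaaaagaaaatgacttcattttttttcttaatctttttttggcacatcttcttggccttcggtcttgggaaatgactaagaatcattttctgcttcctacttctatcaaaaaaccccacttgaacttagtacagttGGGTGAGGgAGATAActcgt
CCR3: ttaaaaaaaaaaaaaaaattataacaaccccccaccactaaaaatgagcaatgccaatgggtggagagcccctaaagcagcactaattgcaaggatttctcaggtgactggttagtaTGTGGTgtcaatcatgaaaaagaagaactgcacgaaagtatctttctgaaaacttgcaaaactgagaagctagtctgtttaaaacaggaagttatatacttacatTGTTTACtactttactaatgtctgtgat
CCR6: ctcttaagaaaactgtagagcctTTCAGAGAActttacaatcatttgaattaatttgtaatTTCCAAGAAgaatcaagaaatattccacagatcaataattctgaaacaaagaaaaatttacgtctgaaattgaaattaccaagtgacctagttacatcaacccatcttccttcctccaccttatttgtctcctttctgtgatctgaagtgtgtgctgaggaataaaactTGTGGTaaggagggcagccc
Motifs were searched on both strands of whole windows of 250 bases and were chosen after the values were seen. The factor families and letters were TATAAA for the TATA box, TGTGGT for the RUNX factors, AGATAA for the GATA factors and GTAAACA for the FOXO factors. Letters with free positions were TGANTCA for AP-1, CCNCNCCC for the KLF factors and TTCNNNGAA for the STAT factors, and the NF-kB motif was searched too. CCR4 held AGATAA at position -81 from the start, found in 9.17% of 35116 promoters, and before it the reverse complement of the KLF motif, found in 53.4% of promoters. CCR3 held TGTGGT at -133, found in 11.0% of promoters, and the reverse complement of GTAAACA at -28, found in 2.98%. CCR6 held TGTGGT at -20 and the STAT motif, found in 6.57% of promoters, at -227 and -189. CCR6 has further RefSeq entries, not printed. That at chr6:167122503-167122752 held the STAT motif at -159 and the reverse complement of the KLF motif at -55. A match of letters is not evidence of a bound site.

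The receptors split by direction. In the numerator group CCR7 and CCR4 were higher, and CCR2, CCR3, CCR6 and CCR8 were lower. The log2 fold change of CCR7 was 2.05 (SE 0.06) in the authors' deposited table, a 4.13-fold higher level with a 95% interval of 3.83 to 4.46. For CCR4 the authors' deposited table gave 1.95 (SE 0.04), 3.85-fold higher with a 95% interval of 3.66 to 4.06. The intervals of these lymph node and skin receptors overlapped, and their log2 fold changes differed by 0.10.

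CCR2 had a log2 fold change of -3.16 (SE 0.06) in the authors' deposited table, which puts the denominator group 8.92-fold above the numerator group (95% interval 8.24 to 9.64). CCR3 was as far down at -3.15 (SE 0.34) in the authors' deposited table, 8.86-fold higher in the denominator group, but with a wide 95% interval of 5.58 to 14.1 at its low level. The type 17 receptor CCR6 had -2.25 (SE 0.24) in the authors' deposited table, 4.76-fold higher in the denominator group (95% interval 3.43 to 6.62). The interval of CCR6 overlapped that of CCR3 and not that of CCR2. CCR8 changed least, at -0.69 (SE 0.06) in the authors' deposited table, 1.61-fold higher in the denominator group (95% interval 1.49 to 1.74).

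All 6 receptors with an adjusted p were under the threshold of 0.05 in the deposited Wald test with Benjamini-Hochberg adjustment over 13957 genes, 2 higher and 4 lower. Of those 13957 genes 29.5% were under it, 14.7% higher and 14.8% lower. Since the contrast itself led to the choice of the family, and since a gene that is high in 1 group passes a filter on the mean more easily, the count of 6 is given without reading. Adjusted p-values in the authors' deposited table ran from a listed 0 for CCR2 and CCR4 to 7.58e-19 for CCR3. Changes were at least 2-fold in 5 of the 6, all but CCR8, where 8.04% of tested genes were called with such a change. At a threshold of 0.01 all 6 passed, where 22.6% of tested genes did, 11.4% higher and 11.3% lower. Tested with the errors of the authors' deposited table against a change of 1.5-fold, CCR8 lost its call (adjusted p = 0.866, the highest over its alternatives, the lowest being 6.54e-31). CCR4, CCR7, CCR2, CCR3 and CCR6 kept theirs, where 4.68% of tested genes passed, 2.36% higher and 2.31% lower. With errors widened by the spread of the statistic over all genes (2.03), all 6 passed, where 8.57% of tested genes did, 4.3% higher and 4.27% lower.

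For CCR9 and CCR10 the fold changes were too imprecise to read. CCR9 had a log2 fold change of -3.53 (SE 3.78) and CCR10 one of -1.67 (SE 2.18) in the authors' deposited table. Their 95% intervals, -10.9 to 3.87 and -5.94 to 2.60 on the log2 scale, spanned changes in both directions, so that a difference was not detectable at these counts.

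**Figure D2:**
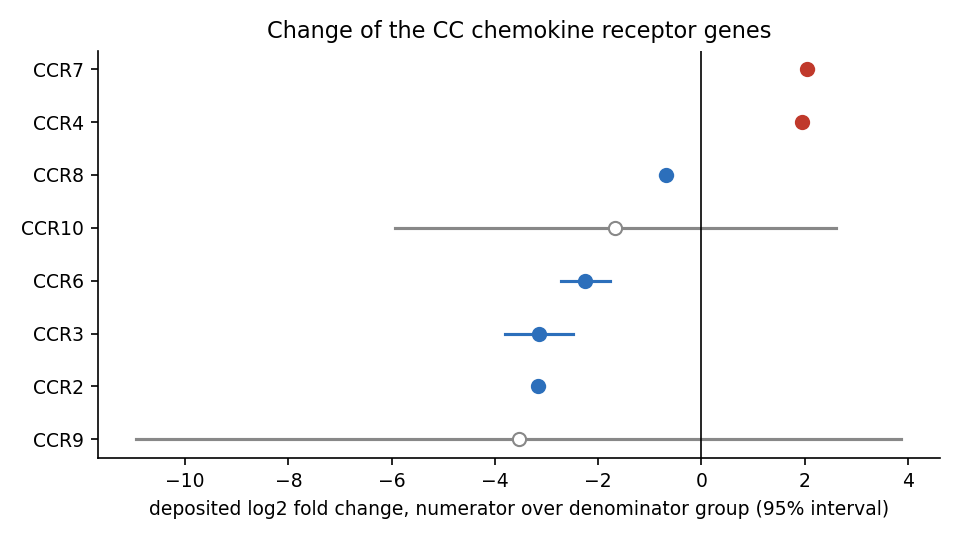
Deposited log2 fold change, numerator over denominator group, of the 8 receptors with 95% intervals from the deposited standard errors. Red is higher, blue lower and grey open not tested, with CCR7 at 2.05 and CCR4 at 1.95 right of 0 and CCR2 at -3.16, CCR3 at -3.15, CCR6 at -2.25 and CCR8 at -0.69 left of it.

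At their levels CCR4, CCR7, CCR2, CCR3 and CCR6 stood at the edge of all genes, and CCR8 did not. Of the 13957 tested genes ordered by the size of the deposited Wald statistic, CCR2 was number 1, CCR4 number 2 and CCR7 number 7. Among tested genes with a mean from 20% below to 25% above the receptor's, a larger change in either direction was seen for 0 of 196 genes near CCR4, 0.292% of 342 near CCR7, 0.598% of 502 near CCR2 and 11.5% of 684 near CCR8. The share was 1.01% of 791 genes near CCR3 and 1.00% of 998 near CCR6. These places come from the contrast that led to the choice of the family and are a description. The standard errors of CCR4 (0.04) and CCR2 (0.06) were close to the medians of 0.05 and 0.06 at their levels, while that of CCR6 (0.24) was above its median of 0.17.

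**Figure D3:**
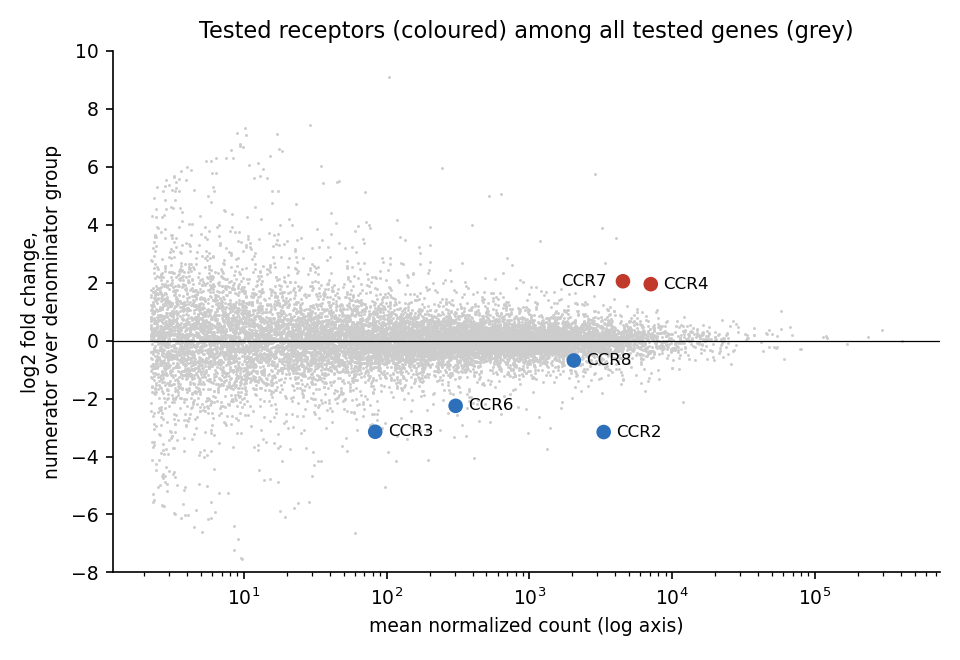
Log2 fold change, numerator over denominator group, against mean normalized count (log axis) for all tested genes in grey, with 3 genes outside the range drawn, and the 6 tested receptors in red (higher) and blue (lower). CCR4, CCR7, CCR2, CCR3 and CCR6 lie outside the bulk of genes at their levels, and CCR8 close to it.

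Of the 8 receptors 5 lie on chromosome 3. CCR2 (chr3:46353734-46360928, GRCh38, plus strand, protein-coding, as for the other coordinates here) and CCR3 (chr3:46163604-46266706) start 0.190 Mb apart in the chemokine receptor cluster of chromosome 3, and CCR9 (chr3:45886504-45903177) starts 0.467 Mb before CCR2. CCR8 (chr3:39329706-39333511) and CCR4 (chr3:32951574-32956349) lie 7.02 and 13.4 Mb from CCR2 on the same chromosome. CCR6 is on chromosome 6 (167111807 to 167139696), and CCR7 (40553769 to 40565472) and CCR10 (42678889 to 42683917) are on the minus strand of chromosome 17.

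Within 600 kb of the CCR2 start, a window chosen after the values were seen, 6 chemokine receptor genes were described, of which 4 were tested and 3 of the 4 were lower (CCR2, CCR3 and CXCR6), where 14.8% of all tested genes were. The window is centred on CCR2, and CCR2 and CCR3 belong to the family chosen by its fold changes, so this count is given without reading. The log2 fold change was negative for all 6, and also for 7 of the 8 other genes there with a fold change. The signs of CCR9 (SE 3.78) and XCR1 (SE 2.23), which were not tested, are imprecise. Imprecise too are the signs of the other untested genes there, with SEs from 3.03 to 4.08 at means of at most 0.797. CXCR6, a receptor of tissue-resident lymphocytes, was lower at -2.14 (SE 0.58), and CCRL2, an atypical receptor, did not pass at -2.50 (SE 1.03) in the authors' deposited table, where its adjusted p is 0.0508. XCR1, a receptor of cross-presenting dendritic cells, stood at a mean normalized count of 1.03 in the authors' deposited table and was not tested. Of 13 other protein-coding genes there, 3 were tested and 2 of these did not pass. FYCO1, an adaptor of autophagosome transport, was lower at -1.999 (SE 0.42) in the authors' deposited table. CXCR6 lies within the span of FYCO1 on the opposite strand, and CCR9 overlaps LZTFL1 in the same way, with -2.25 (SE 1.07) for LZTFL1 in the authors' deposited table, where its adjusted p is 0.102. Whether the counting used strand is not given in the sources used here, so reads of such overlapping genes cannot be told apart.

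**Figure D4:**
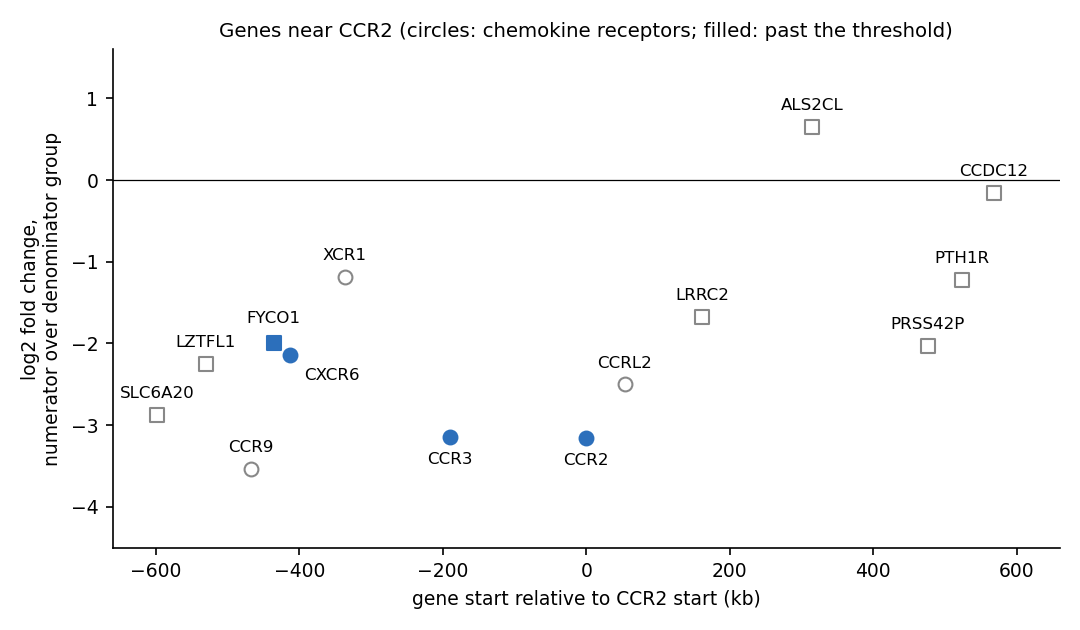
Log2 fold change, numerator over denominator group, of protein-coding genes with a fold change that start within 600 kb of CCR2, against distance from the CCR2 start. Circles are chemokine receptors and squares other genes, filled where past the threshold. All 6 receptors lie below 0, from XCR1 at -1.18 to CCR9 at -3.53, as do 7 of the 8 other genes. Among the other genes FYCO1 alone passed the threshold, and the signs of untested genes, XCR1 and CCR9 among them, are imprecise.

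Of the nearest genes on either side of CCR4, CCR6, CCR7 and CCR8, 7 were tested and 2 were called, both in the direction of the receptor, where 29.5% of all tested genes were called. On either side of CCR4, CNOT10 (0.27, SE 0.13) and GLB1 (0.21, SE 0.20) did not pass the threshold in the authors' deposited table. Beside CCR7, SMARCE1, a chromatin remodelling subunit, was higher by a log2 fold change of only 0.33 (SE 0.06) and TNS4 (0.42, SE 0.78) did not pass in the authors' deposited table. CCR8 has the fractalkine receptor gene CX3CR1 on 1 side, 48.0 kb away and lower at -1.40 (SE 0.37), and SLC25A38 (1.81, SE 1.63), which did not pass, on the other in the authors' deposited table. Next to CCR6, CEP43 did not pass at 0.17 (SE 0.10) and TCP10L2 is listed at 0 in the authors' deposited table. Of the 50-base windows of CCR6 transcripts, 68.2% also occur in Z94721.2, an overlapping noncoding gene on the same strand, so the counts of CCR6 are uncertain where reads were split between them. CCR6 also overlaps the noncoding genes AL121935.1 and AL121935.2, CCR10 overlaps CNTNAP1, and the span of CCR3 holds CCR1, each on the opposite strand. For CCR2 and CCR4 the share of windows found in any other gene was 0.423% and 2.86%, and for CCR3, CCR7, CCR8, CCR9 and CCR10 it was 0.

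Of 26 CC chemokine ligand genes listed, 7 were not analysed here, 19 had a row, 6 of those were listed at 0 and 6 were tested, of which 1 was higher, 3 were lower and 2 did not pass (background 14.7% and 14.8%). The median log2 fold change of the 6 was -0.22, against 0 over all tested genes. CCL2, the ligand of CCR2, was higher at 2.67 (SE 0.34), the opposite direction to its receptor, at a mean normalized count of 126 in the authors' deposited table. CCL4 at -3.64 (SE 0.43) and CCL3 at -2.07 (SE 0.33), inflammatory chemokines of activated T cells, were lower in the authors' deposited table. Near-identical copies share 10.1% of the 50-base windows of CCL4 (CCL4L2) and 4.93% of those of CCL3 (CCL3L1), which makes these counts less certain. The authors' deposited table gave CCL28, a CCR10 ligand, at 525 and a log2 fold change of -0.64 (SE 0.12), a call that was lost against a 1.5-fold change (adjusted p = 1.00) and with widened errors (adjusted p = 0.0869).

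CCL1, the ligand of CCR8, stood at 129 mean normalized counts and did not pass at 0.20 (SE 0.22) in the authors' deposited table, where its adjusted p is 0.553. The CCR7 ligands CCL19 and CCL21, the CCR6 ligand CCL20 and the eotaxins CCL11, CCL24 and CCL26 were all listed at 0. CCL17, a ligand of CCR4, stood at 1.58 in the authors' deposited table, with no adjusted p.

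Of 8 CXC, CX3C and XC receptors 6 were tested, with 0 higher (0 also at an unadjusted p under 0.05) and 4 lower in the deposited Wald test (background 14.7% higher and 14.8% lower), and a median log2 fold change of -1.34, against -1.47 for the 6 tested CC receptors. CXCR1, known from neutrophils, had -5.20 (SE 1.86) at a mean of only 2.88, and CXCR6 and CX3CR1 had the values given above in the authors' deposited table. All 4 lower calls were lost against a 1.5-fold change and with widened errors, and 1 gene of the list was called lower among genes at the level minimum. CXCR4, the CXCL12 receptor, had 6163 mean normalized counts and did not pass at 0.02 (SE 0.06) in the authors' deposited table. Per kilobase of exons this is a level of 2771, against 2290 for CCR4. Of the 5 atypical receptors 3 were tested and 0 passed in the deposited Wald test, with 1 lower at an unadjusted p under 0.05 (CCRL2, which passed when protein-coding genes alone were adjusted).

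Of 28 tested genes of shared signalling downstream of the receptors, 6 were higher, 10 were lower and 12 did not pass (background 14.7% higher and 14.8% lower), with a median log2 fold change of -0.11. PIK3R6, which regulates phosphoinositide 3-kinase gamma below such receptors, stood far out in the authors' deposited table with 5.00 (SE 0.18). ARRB1, a beta-arrestin that desensitizes and internalizes receptors, was lower at -1.04 (SE 0.10), and GNAI2, the main inhibitory G protein alpha subunit of lymphocytes, at -0.84 (SE 0.16) in the authors' deposited table. Tested from the authors' deposited table, GNAI2 lost its call against a 1.5-fold change (adjusted p = 1.00) and with widened errors (adjusted p = 0.0872). Against a 1.5-fold change 1 higher and 1 lower gene of the list were called, and with widened errors 2 higher and 3 lower.

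Adhesion and egress receptors, which act with chemokine receptors in homing, were lower in 9 of 13 tested genes and higher in 0 (1 at an unadjusted p under 0.05) in the deposited Wald test, where 14.8% of all tested genes were lower and 14.7% higher, with a median log2 fold change of -0.61. ITGA4, the alpha-4 integrin subunit, was lower at -1.57 (SE 0.08), CD69, an activation marker that retains cells in tissue, at -1.12 (SE 0.11) and S1PR4, a sphingosine 1-phosphate receptor, at -1.05 (SE 0.08) in the authors' deposited table. Against a 1.5-fold change 5 genes of the list were lower, where 2.31% of all tested genes were.

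Among helper and memory lineage factors 3 of 12 tested genes were higher, 4 were lower and 5 did not pass (background 14.7% higher and 14.8% lower), with a median log2 fold change of -0.39. KLF2, a factor of quiescence and lymphocyte egress, was lower at -3.18 (SE 0.15) and MAF at -2.32 (SE 0.08), while PRDM1, a factor of effector differentiation, was higher at 2.07 (SE 0.22) in the authors' deposited table. GATA3, the factor of type 2 helper cells in which CCR4 and CCR8 are known, did not pass at -0.58 (SE 0.46) in the authors' deposited table, where its adjusted p is 0.396. FOXP3, the regulatory T cell factor, was listed at 0 in the authors' deposited table.

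**Figure D5:**
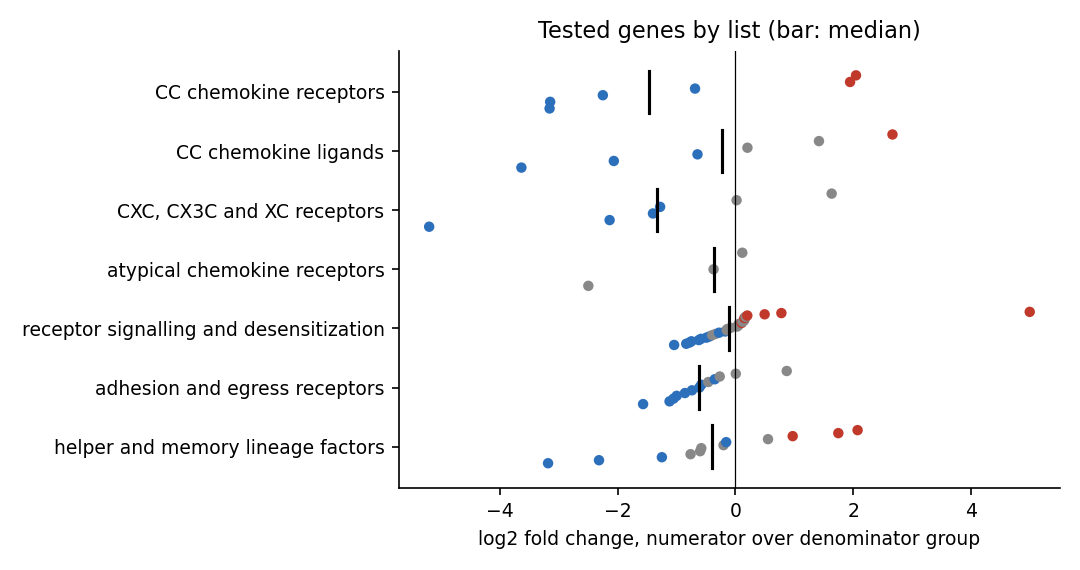
Log2 fold change, numerator over denominator group, of every tested gene in the lists, red where higher, blue where lower and grey where not past the threshold, with a bar at each median. The CC receptors spread from -3.16 to 2.05, and most signalling genes lie near 0 apart from PIK3R6 at 5.00.

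Some markers of cell types also differed between the groups. Of 8 tested T cell markers 6 were lower and 0 were higher (0 higher and 7 lower at an unadjusted p under 0.05, deposited Wald test), where 14.8% of all tested genes were lower, and their median log2 fold change was -0.55. CD3D stood at -0.77 (adjusted p = 2.66e-36) and CD8A at -0.32 (adjusted p = 0.000140) in the authors' deposited table. The NK cell markers NCAM1 at -1.61 and FCGR3A at -1.36 were lower, KLRF1 did not pass, SH2D1B was not tested and NCR1 was listed at 0 in the authors' deposited table. Of 6 B cell markers 2 were tested, and CD79B was lower at -2.37 in the authors' deposited table, where its adjusted p is 2.79e-07. Among 8 monocyte and dendritic cell markers, CSF1R was higher at 4.196 (SE 0.76) at a mean of 20.7 in the authors' deposited table. LYZ was lower at -6.02 (SE 1.93) at a mean of only 4.06, 3 did not pass, and CLEC10A was listed at 0 in the authors' deposited table. The highest mean of the 8 was 103 (CD68) in the authors' deposited table. Of 5 measured eosinophil and basophil markers, HDC stood at 23.3, PRG2 at 1.603 and IL5RA at 1.57, and SIGLEC8 and MS4A2 were listed at 0, in the authors' deposited table. HDC alone was tested and did not pass at 0.97 in the authors' deposited table. With widened errors CD3D, CD3E, CD247, CD8B and NCAM1 kept their calls, and CD8A, CD6, FCGR3A, CD79B, CSF1R and LYZ lost theirs. Against a 1.5-fold change CD3D, NCAM1, CD79B and CSF1R alone kept theirs. The part of these cell types in the receptor values was not tested.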

How the data were processed

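RNA was sequenced from 6 samples in 2 groups of 3. Total RNA went into a SMARTer kit (labels' protocols), and the submitters' processing notes name STAR, Salmon and hg38 without their roles. The deposited table holds a mean normalized count, treated as a signal, a log2 fold change with its log2 standard error, a Wald statistic (a score), and p-values, per the file headers. Which program and model made it is not given in the sources used here. The deposited statistic equalled fold change over error within 4.23e-07, and Benjamini-Hochberg adjustment over 13957 genes gave the deposited adjusted p-values within 3.66e-07. Means with an adjusted p began at 2.22. Depth per library is unknown.

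Gene IDs were matched without version to symbols (33483) and to GENCODE 29 on GRCh38 (33582). Members, lists and the naming rule (all receptors, the 3 largest called changes per list, ligands with a mean of at least 72.0, and nearest genes) were chosen with earlier results of these data known. The motifs, the 600 kb window and the ranks among genes of like level were chosen after the values were seen, and CXCR4, GATA3, FOXP3, CCL17, CCRL2, XCR1, FYCO1, LZTFL1, cell type markers and the ligands listed at 0 were named outside the rule. Intervals are normal 95% intervals from the deposited error. Alternatives were a Wald test against 1.5-fold, errors widened by the spread of the statistic (2.03), no filter on low means, the level minimum, protein-coding genes only, a 0.01 threshold, median centring and coding length (longest GENCODE coding sequence). The deposited rule, the test against 1.5-fold and the widened errors were tried on simulated data with normal errors of the deposited size. The other alternatives were not. The simulation changed a far smaller share of genes than the 29.5% called here, so it does not show how these rules behave on such data. A planned protein comparison was not made, and some genes, 1 of them of the family, are not reported here. Python 3.11.15, numpy 2.4.6, pandas 2.3.3, scipy 1.17.1 and matplotlib 3.10.9 were used.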

Additional observations from a re-analysis of the deposited data

How the results depend on the processing

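The alternatives changed p-values, thresholds or the genes adjusted over and left the deposited log2 fold changes as they are, so they do not test direction. Calls held for CCR2, CCR3, CCR4, CCR6 and CCR7 in each, while CCR8 at -0.69 in the authors' deposited table was not called against a 1.5-fold change (adjusted p = 0.866), where 4.68% of all tested genes were called. With widened errors all 6 were called (background 8.57%). Against 1.5-fold, lower calls numbered 0 among CXC, CX3C and XC receptors and 5 among adhesion and egress receptors, and signalling genes kept 1 higher and 1 lower. Widened errors gave 0 lower CXC, CX3C and XC receptors, and 2 higher and 3 lower signalling genes. The level minimum left 1 lower CXC, CX3C or XC receptor, and adjusting over protein-coding genes gave 1 lower atypical receptor. CCR2 and CCR8 exchanged the third and the fourth place with coding length. The cause was not tested, although the level minimum itself removes low genes. No paired analysis was possible because the table holds no values per sample, and leaving out replicates was not run for the same reason. Few reads lie behind CCR9 and CCR10, and depth per library is unknown.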
